A study of Homo sapiens with 6 samples.

Results

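The genes of prostaglandin synthesis were followed through the knockdown of MCM7, part of the replicative DNA helicase. The set held 10 of the 58302 genes in the read-count table, taken by symbol: PLA2G4A, PTGS1, PTGS2, PTGDS, PTGES, PTGES2, PTGES3, PTGIS, PTGR1 and HPGD. The set was chosen by the known difference in PTGDS read counts between the control and MCM7 siRNA libraries, so all differences between the groups are given for these genes as a description, without a p-value. In all, 9 of the 10 genes had reads, and the same 9 passed the filter on low counts that left 14667 genes for testing.

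RNA was sequenced from 6 samples of 1BR3 cells, a line of human forearm fibroblasts immortalized with hTert, the catalytic subunit of telomerase. Control siRNA (a non-targeting siRNA) was given to 3 samples and a pool of siRNAs against MCM7 to the other 3. Cells were transfected while cycling and RNA was taken after 3 days of serum starvation, a state in which fibroblasts stop dividing and carry a primary cilium, so starvation and transfection were shared by both groups. All samples came from 1 cell line, and nothing in the labels says whether replicates were separate cultures, so the spread between samples may be technical.

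Prostaglandins are lipid mediators made from arachidonic acid. A phospholipase frees the fatty acid from membranes, the cyclooxygenases PTGS1 and PTGS2 turn it into the unstable intermediate PGH2, and a terminal synthase then fixes which prostaglandin is made: PTGDS gives PGD2, the PTGES enzymes give PGE2 and PTGIS gives prostacyclin. HPGD and PTGR1 start the breakdown of the products. PTGDS is unusual in being both an enzyme and a secreted lipocalin, a protein that carries small lipophilic molecules.

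The total count ranged from 18669386 to 21380345 reads in the control libraries and from 13721281 to 23969024 with MCM7 siRNA, so that 1 read was worth between 0.0418 and 0.0732 CPM (read counts scaled to library size and TMM factors). MCM7 had 509, 594 and 662 reads with control siRNA and 48, 68 and 76 with MCM7 siRNA, as the labels require. The cells carried fibroblast transcripts, with a summed level of 9 markers between 68363 and 74912 CPM in every library. In this list 4 markers were called higher (COL3A1, PDGFRA, PDGFRB and LUM) and VIM was called lower by edgeR, with the calls of PDGFRB and LUM kept in 13 and 12 of 17 alternatives. Summed markers of melanocytes, endothelial cells, leukocytes and adipocytes reached at most 1.56 CPM in any library, and of the keratinocyte markers KRT5 and KRT1 had no read while KRT10 had 9.11 CPM in the control mean. Smooth muscle markers summed to between 45.5 and 49.5 CPM with control siRNA and between 37.1 and 40.1 CPM with MCM7 siRNA, of which SMTN made up most, and their part in the results below was not tested.

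The members are scattered over the genome (GRCh38, GENCODE 44), but 5 of the 10 lie on chromosome 9, which carries 4.06% of the tested genes. They are PTGR1 (111549722 to 111599893), PTGS1 (122370530 to 122395703), PTGES2 (128120693 to 128128462), PTGES (129738331 to 129753042) and PTGDS (136975092 to 136981742). Even the nearest of them, PTGES2 and PTGES, are 1610 kb apart. PTGS2 (186671791 to 186680922) and PLA2G4A (186828949 to 186988981) are neighbours on chromosome 1 with 148 kb between them. HPGD is on chromosome 4, PTGES3 on chromosome 12 and PTGIS on chromosome 20.

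Promoter windows from 250 bases before to 50 bases after the start of transcription were taken from RefSeq (GRCh38.p14) for 9 of the members. They are shown for PTGDS and PTGES3, the members called lower, and for PTGS2, the inducible cyclooxygenase, because these windows differ in kind. Capitals mark the E-box CANNTG, the GC box GGGCGG, the TATA box TATAAA and the CCAAT box, each searched on both strands. The windows are chr9:136977254-136977553 on the plus strand for PTGDS, chr12:56688235-56688534 on the minus strand for PTGES3 and chr1:186680374-186680673 on the minus strand for PTGS2.
PTGDS: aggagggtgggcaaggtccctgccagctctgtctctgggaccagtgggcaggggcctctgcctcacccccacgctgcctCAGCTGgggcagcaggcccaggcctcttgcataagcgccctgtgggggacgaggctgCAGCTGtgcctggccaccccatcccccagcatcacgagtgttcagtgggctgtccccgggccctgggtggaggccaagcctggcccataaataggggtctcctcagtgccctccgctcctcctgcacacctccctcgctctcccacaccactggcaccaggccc
PTGES3: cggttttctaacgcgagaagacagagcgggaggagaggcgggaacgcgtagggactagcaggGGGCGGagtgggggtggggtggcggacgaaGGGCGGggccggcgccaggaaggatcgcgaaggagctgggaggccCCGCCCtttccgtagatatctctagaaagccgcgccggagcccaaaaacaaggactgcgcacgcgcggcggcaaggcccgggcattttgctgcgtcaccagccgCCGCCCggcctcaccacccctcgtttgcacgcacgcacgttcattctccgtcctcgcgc
PTGS2: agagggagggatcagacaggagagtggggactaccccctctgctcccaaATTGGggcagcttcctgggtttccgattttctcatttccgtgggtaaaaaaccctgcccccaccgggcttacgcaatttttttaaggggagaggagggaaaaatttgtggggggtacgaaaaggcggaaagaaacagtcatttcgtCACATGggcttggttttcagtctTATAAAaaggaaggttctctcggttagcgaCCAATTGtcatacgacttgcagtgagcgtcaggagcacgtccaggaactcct

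The PTGDS window held 2 E-boxes and none of the other motifs, and E-boxes were present in 68.7% of all 35116 windows. Its GC content of 68.7% was high, while its ratio of observed to expected CpG was only 0.201, lower than in all but 21.7% of windows, and the median window had 0.579. The PTGES3 window was as rich in G and C, with 68.0%, but kept its CpG dinucleotides (ratio 1.08) and held 4 GC boxes, a motif present in 45.0% of windows. The PTGS2 window had a GC content of 50.7%, 1 TATA box (present in 11.5% of windows), 2 CCAAT boxes (34.6%) and 2 E-boxes, of which 1 overlapped a CCAAT box. A match of letters is not evidence that a factor binds there.

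Among the 9 tested members, 2 passed the edgeR threshold of an adjusted p of 0.05, and both were lower with MCM7 siRNA: PTGDS and PTGES3. DESeq2 called PTGDS alone. Over all genes 12.8% were called, 6.65% lower and 6.18% higher. The groups did not overlap for 6 of the 9 members, where 29.6% of all tested genes had no overlap. Since PTGDS led to the choice of the set, nothing is read from these counts. The median log2 fold change of the 9 members was -0.11, beside -0.0028 over all tested genes.

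**Figure D1:**
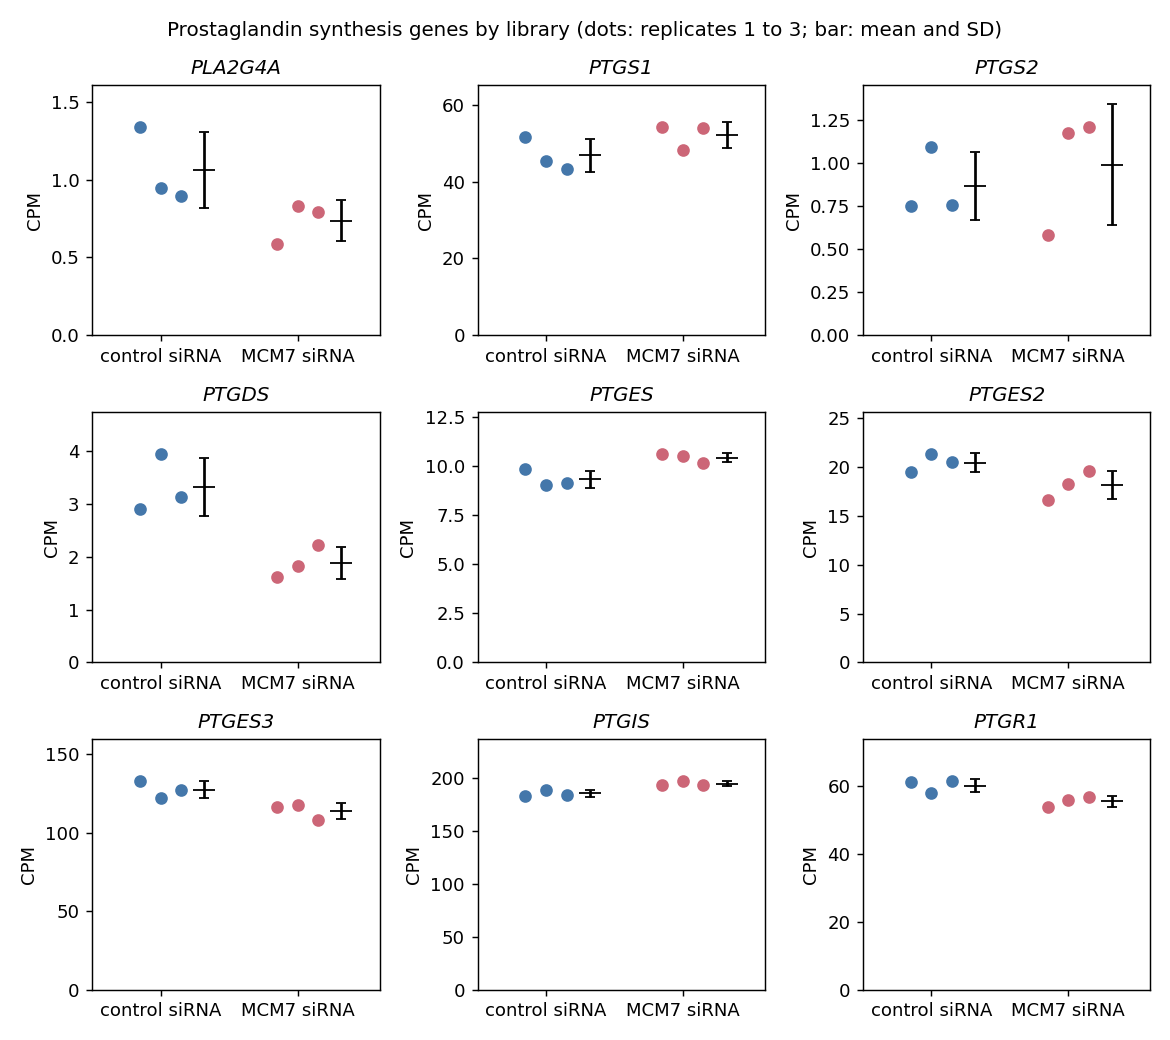
Level of each detected member in CPM (vertical axes, starting at 0) in the 3 control siRNA and 3 MCM7 siRNA libraries. Each dot is a library and the bar to its right gives the mean and SD of the group. PTGDS lies between 2.90 and 3.94 CPM in the control libraries and between 1.61 and 2.22 CPM with MCM7 siRNA.

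PTGDS was the member with the largest difference. It had 2.90, 3.94 and 3.12 CPM in control replicates 1 to 3 and 1.61, 1.81 and 2.22 CPM with MCM7 siRNA. The lowest control library thus stood above the highest MCM7 siRNA library. The means were 3.32 ± 0.549 and 1.88 ± 0.309 CPM (SD, n = 3), a fitted 1.72-fold difference (log2 fold change -0.79 ± 0.19 SE) that left 58.0% of the control level. These values rest on few reads, namely 54, 79 and 66 in the control libraries and 22, 37 and 53 with MCM7 siRNA. The call held in 17 of 17 alternative fits, with a fold between 1.49 and 1.92. These fits reuse the libraries whose PTGDS difference led to the set, so they give it no separate support. In bulk RNA, fewer cells that carry a transcript and less of it per cell cannot be told apart.

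The counting leaves uncertain the level of PTGDS and which of its bases the fold change rests on. An annotated read-through gene on the same strand (ENSG00000284341, 136977518 to 136985435) shares 634 of the 812 bases of the canonical PTGDS transcript, or 78.1%, and continues past the end of PTGDS. It was in the deposited table with 0 reads in all 6 libraries, so no read was counted for both genes. Where counting by gene drops reads that fall on 2 genes of a strand, most reads from this transcript would count for neither. The counted PTGDS reads, and with them its fold change, would then come from its other bases. The paper names no counting option for such reads, and whether they were dropped was not tested. No other member shared exon bases with a gene on its strand.

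Upstream of the synthases, PLA2G4A encodes the cytosolic phospholipase that frees arachidonic acid. It had 1.34, 0.947 and 0.897 CPM with control siRNA and 0.585, 0.833 and 0.794 CPM with MCM7 siRNA. All 3 MCM7 siRNA values were the lower ones, but they stood on 8 to 25 reads per library. The log2 fold change of -0.47 ± 0.29 SE was not called.

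PTGS1, the constitutive cyclooxygenase, was far more abundant than PTGS2. It had 51.7, 45.4 and 43.4 CPM with control siRNA and 54.3, 48.3 and 54.0 CPM with MCM7 siRNA. The groups overlapped, and the log2 fold change of 0.16 ± 0.07 SE was not called. It was called higher without control siRNA replicate 1 (log2 fold change 0.23) and without MCM7 siRNA replicate 2 (0.21). PTGS2, which is induced by cytokines and growth factors in many cells, had 0.751, 1.10 and 0.756 CPM with control siRNA and 0.585, 1.18 and 1.21 CPM with MCM7 siRNA. The lowest and the highest of these values both came from MCM7 siRNA libraries, and the log2 fold change of 0.27 ± 0.29 SE was not called. In each library the RPKM (reads per kilobase of gene length, scaled to library size) of PTGS1 was between 37.4 and 84.4 times that of PTGS2. PTGS2 stood on only 8 to 29 reads per library, so this ratio is imprecise. The ratio of 84.4 came from MCM7 siRNA replicate 1, where PTGS2 had 8 reads.

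The PGE2 synthases did not share a direction. PTGES, the inducible microsomal enzyme, had 9.81, 9.02 and 9.11 CPM with control siRNA and 10.6, 10.5 and 10.2 CPM with MCM7 siRNA. Its groups did not overlap, yet the log2 fold change of 0.16 ± 0.10 SE was not called. PTGES2, a membrane-associated enzyme, had 19.5, 21.3 and 20.5 CPM with control siRNA and 16.6, 18.3 and 19.5 CPM with MCM7 siRNA. The log2 fold change was -0.16 ± 0.08 SE, the groups overlapped slightly, and the gene was not called.

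PTGES3, the cytosolic PGE2 synthase, is better known as p23, a co-chaperone of HSP90. It had 133, 122 and 127 CPM with control siRNA and 116, 117 and 108 CPM with MCM7 siRNA. All MCM7 siRNA libraries were below all control libraries, with means of 127 ± 5.29 and 114 ± 4.98 CPM (SD, n = 3). The log2 fold change of -0.16 ± 0.05 SE, a 1.12-fold difference, was called by edgeR but kept its call in only 9 of 17 alternative fits and was not called by DESeq2. It was lost without control siRNA replicate 1 (log2 fold change -0.13) or replicate 3 (-0.17), and without MCM7 siRNA replicate 1 (-0.18) or replicate 3 (-0.13). Moreover, 5 processed copies of PTGES3 are annotated as pseudogenes and held 518 reads in the 6 libraries, so part of its reads may have been lost or split.

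PTGIS, which makes prostacyclin, was the most abundant member by CPM. It had 182, 189 and 184 CPM with control siRNA and 193, 197 and 193 CPM with MCM7 siRNA. All MCM7 siRNA values were the higher ones, but the difference was only 1.05-fold (log2 fold change 0.07 ± 0.05 SE) and was not called.

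Of the catabolic enzymes, PTGR1 reduces the double bond of 15-keto-prostaglandins. It had 61.2, 57.9 and 61.6 CPM with control siRNA and 53.8, 55.9 and 56.9 CPM with MCM7 siRNA. The groups did not overlap, with a log2 fold change of -0.11 ± 0.06 SE that was not called. HPGD, the dehydrogenase that inactivates prostaglandins one step earlier, had 0 reads in every library, which allows a level of up to 0.125 to 0.219 CPM by library (3 reads, counting error only).

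**Figure D2:**
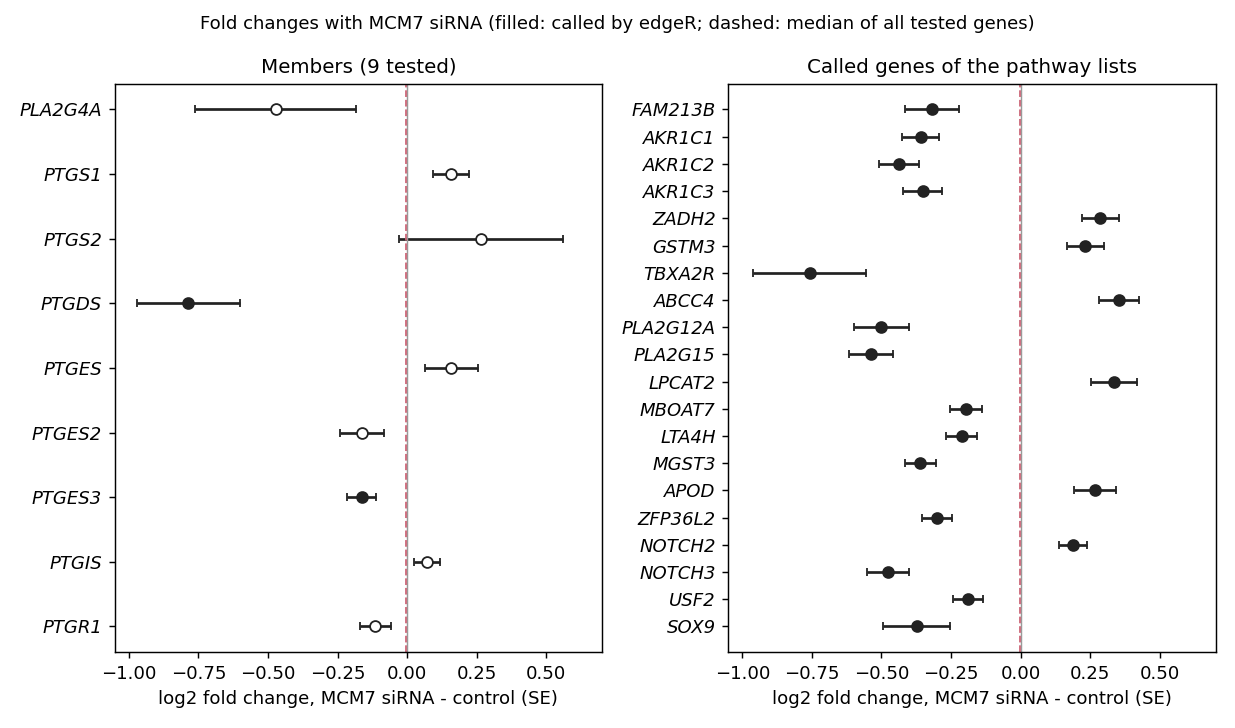
Log2 fold change with MCM7 siRNA relative to control siRNA (horizontal axes) for the 9 tested members (left) and the 20 called genes of the pathway lists (right). Dots with bars give the value and SE, filled dots were called by edgeR, and the dashed line is the median of all tested genes. PTGDS (-0.79) lies farthest from 0 among the members.

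Per kilobase of the length behind the deposited RPKM values, the control order was PTGES3 (37.3 ± 1.63 RPKM), PTGIS (33.0 ± 0.581), PTGR1 (16.1 ± 0.526), PTGS1 (8.04 ± 0.781), PTGES2 (6.69 ± 0.296), PTGES (4.89 ± 0.243), PTGDS (1.22 ± 0.201), PLA2G4A (0.368 ± 0.0855) and PTGS2 (0.164 ± 0.0375; SD, n = 3). Neighbours in this order were separated by more than their SDs. With MCM7 siRNA the first 2 were PTGIS (34.9 ± 0.750 RPKM) and PTGES3 (33.6 ± 1.69), whose libraries overlapped. The other members kept their places.

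The order depends in part on the length chosen. The authors' length for PTGDS was 2711 bases, while its canonical transcript has 812. With canonical lengths, an alternative added after the data were seen, PTGDS had 4.08 ± 0.676 CPM per kilobase in control libraries but stayed in place 7. PTGR1 (37.7 ± 1.26) then passed PTGIS (33.2 ± 0.584), and PTGES2 (12.8 ± 0.588) passed PTGS1 (9.32 ± 0.866). Both lengths of PTGDS include the bases shared with the read-through gene. If reads on those bases were dropped, both PTGDS levels are too low and its place may be too.

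**Figure D3:**
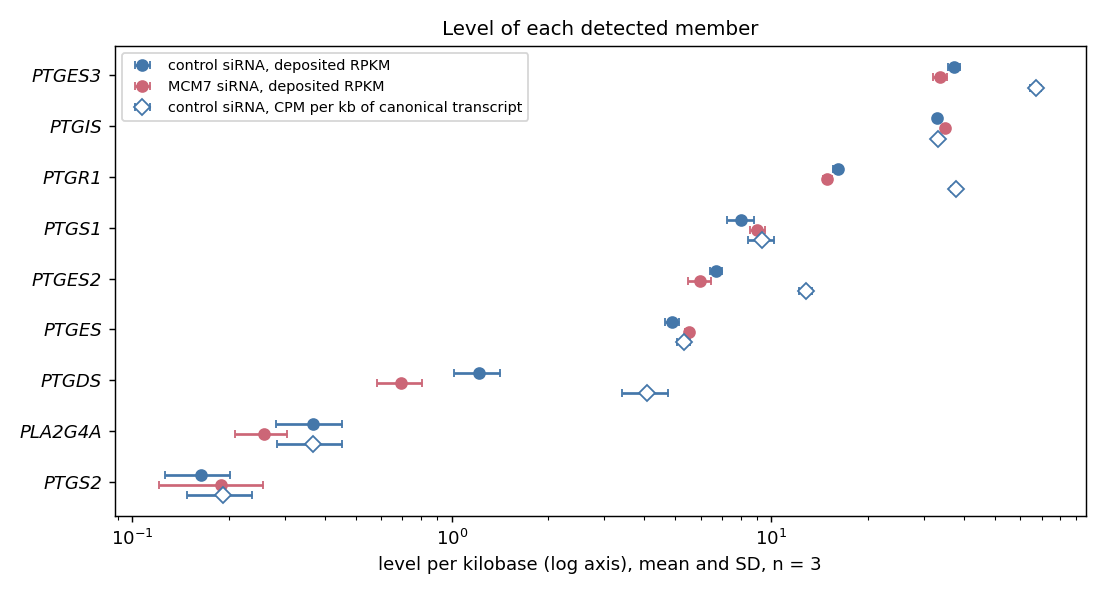
Level per kilobase of the 9 detected members (log axis), as mean and SD of 3 libraries. Filled dots are deposited RPKM in both groups and open diamonds are control CPM per kilobase of the canonical transcript. PTGES3 and PTGIS lead by RPKM, and PTGDS moves from 1.22 to 4.08 with the shorter length.

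Within the summed RPKM of the 5 terminal synthases, PTGES3 and PTGIS took 44.9% ± 1.48 and 39.7% ± 1.00 (SD, n = 3) in the control libraries. PTGDS took 1.26%, 1.75% and 1.38% with control siRNA and 0.738%, 0.815% and 1.03% with MCM7 siRNA. With canonical lengths its mean share was 3.34% in control and 2.02% in MCM7 siRNA libraries. With MCM7 siRNA the share of PTGIS was 43.3% ± 0.458 and that of PTGES3 41.6% ± 1.19. These shares were not tested and describe RNA, not enzyme activity. Those of PTGDS are too low if reads on the bases shared with the read-through gene were dropped.

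The spread between libraries of a group differed among members. The set was chosen by the PTGDS read counts of these libraries, so the spread of PTGDS is not independent of that choice. PTGIS had an SD of log2 CPM within groups of 0.0211, and only 4.6% of the 500 genes of nearest level had a smaller one. PTGES was similar, with 0.0518 and 4.4%. PTGS1 stood at the other end, with an SD of 0.115 that exceeded those of 90.8% of its 500 neighbours in level. PTGDS had 0.230, beside a median of 0.202 in genes of its level, and PTGS2 had the widest spread, 0.461.

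**Figure D4:**
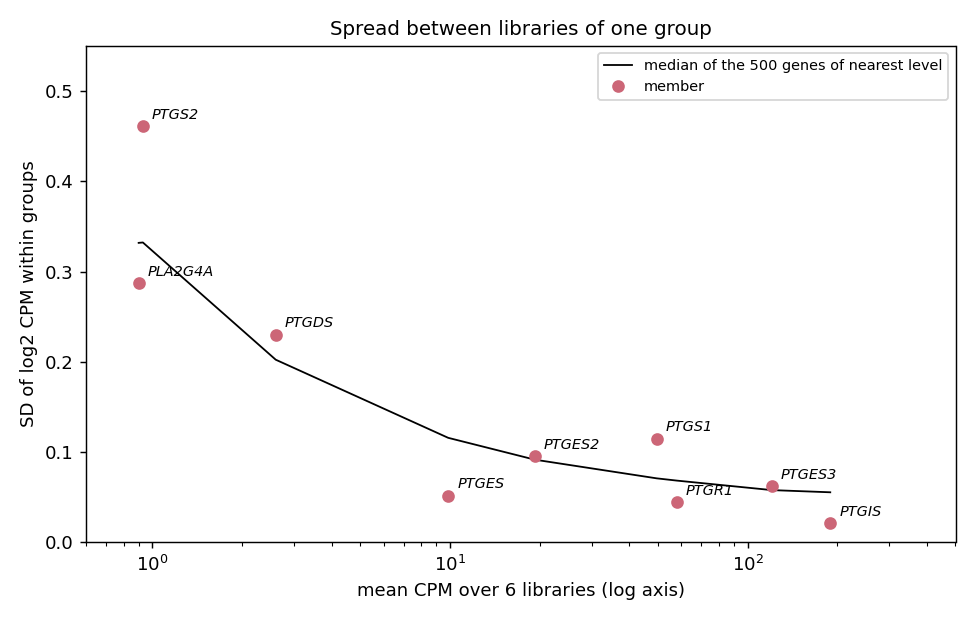
SD of log2 CPM between libraries of one group (vertical axis) against mean CPM over the 6 libraries (log axis) for each tested member. The line joins the medians of the 500 genes nearest in level to each member. PTGS1, PTGS2 and PTGDS lie above the line, PTGES, PTGIS, PTGR1 and PLA2G4A below it, and PTGES2 and PTGES3 close to it.

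The rest of the pathway was described by 7 lists with 116 genes, of which 70 were tested and 20 called by edgeR, 6 higher and 14 lower, beside 12.8% called, 6.18% higher and 6.65% lower over all tested genes. These shares are the background for each list below, but the share called rose with level. Among the 500 tested genes nearest in level it was 2% for PLA2G4A, 13.8% for PTGES2 and 30.4% for PTGIS. DESeq2 also called 17 of the 20, all but TBXA2R, FAM213B and SOX9. The median log2 fold change of the 70 tested genes was -0.02. These lists, too, were drawn up with earlier results of these data known. Of the other prostanoid synthases and reductases 11 of 13 were tested, with 2 higher, 4 lower and a median log2 fold change of -0.08. The 3 AKR1C aldo-keto reductases of this list were all called lower. AKR1C3, which reduces PGD2 and PGH2 to F-type prostaglandins, fell from 46.9 ± 3.05 to 36.6 ± 3.56 CPM (SD of 3 libraries, edgeR adjusted p = 0.000669). AKR1C2 fell from 34.8 ± 2.19 to 25.5 ± 2.31 CPM (edgeR adjusted p = 8.53e-05) and AKR1C1 from 43.5 ± 1.23 to 33.9 ± 3.28 CPM (edgeR adjusted p = 0.000423). These 3 genes are close copies of each other on chromosome 10, so their reads could be lost or split and they are not independent measurements. All MCM7 siRNA libraries were below all control libraries for each of them, and the calls held in 17 of 17 alternatives. ZADH2 (also PTGR3), a reductase of 15-keto-PGE2, rose from 32.5 ± 0.908 to 39.8 ± 2.67 CPM (edgeR adjusted p = 0.00294). The other called genes of this list were FAM213B (PRXL2B), an F-type prostaglandin synthase, with a log2 fold change of -0.32 (SE 0.10, adjusted p = 0.0278 by edgeR), and the glutathione transferase GSTM3, with 0.23 (SE 0.07, adjusted p = 0.0197 by edgeR). FAM213B kept its call in 11 of 17 alternatives (adjusted p from 0.00641 to 0.149) and was lost with DESeq2, after thinning to the smallest library and without MCM7 siRNA replicate 1 or any 1 control library, and GSTM3 kept it in 13 (0.00349 to 0.115) and was lost without control or MCM7 siRNA replicates 1 or 2.

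Of 12 prostanoid receptors and transporters 8 were tested, with 1 higher, 1 lower and a median log2 fold change of 0.08. ABCC4, which exports PGE2 from cells, rose from 23.1 ± 1.49 to 29.5 ± 1.36 CPM (SD of 3 libraries, edgeR adjusted p = 0.000851). TBXA2R, the thromboxane receptor, had 2.20, 3.24 and 2.79 CPM with control siRNA and 1.76, 1.81 and 1.38 CPM with MCM7 siRNA. It fell by 0.76 on the log2 scale (SE 0.20, adjusted p = 0.0107 by edgeR), close to that of PTGDS in size. This call was not kept by DESeq2 or without control siRNA replicate 2 or MCM7 siRNA replicate 3, and the adjusted p ranged from 0.00286 to 0.0912 over 17 alternatives. The PGD2 receptors PTGDR and PTGDR2 were not among the tested genes.

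In the list of arachidonate release and re-esterification, 14 of 20 genes were tested, with 1 higher, 3 lower and a median log2 fold change of 0.0025. The lysosomal phospholipase PLA2G15 fell from 22.0 ± 1.65 to 15.2 ± 0.895 CPM (SD of 3 libraries, edgeR adjusted p = 2.2e-05) and the secreted phospholipase PLA2G12A from 11.2 ± 0.741 to 7.91 ± 0.312 CPM (edgeR adjusted p = 0.000765). LPCAT2, an acyltransferase that rebuilds phospholipids, rose from 13.2 ± 0.389 to 16.7 ± 0.571 CPM (edgeR adjusted p = 0.00567). MBOAT7, which returns arachidonate to phosphatidylinositol, fell from 62.0 ± 1.25 to 54.0 ± 3.10 CPM (edgeR adjusted p = 0.021), a call kept in 12 of 17 alternatives (adjusted p from 0.00259 to 0.111). It was lost when any library other than MCM7 siRNA replicate 3 was left out.

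Of the 22 genes of lipoxygenases, leukotrienes and epoxides only 7 were tested, and 7 others had no read in any library. edgeR called 2, both lower, with a median log2 fold change of -0.06. MGST3, a microsomal glutathione transferase, fell from 78.1 ± 3.17 to 60.9 ± 2.67 CPM (SD of 3 libraries, edgeR adjusted p = 3.26e-05). LTA4H, which makes leukotriene B4, fell from 60.1 ± 1.84 to 52.0 ± 0.518 CPM (edgeR adjusted p = 0.00987), a call lost without control siRNA replicate 3 (adjusted p from 0.00869 to 0.0836 over the alternatives). Of the 17 relatives of PTGDS in the lipocalin family, 9 had no read and 2 were tested, with a median log2 fold change of 0.07. Among these APOD, apolipoprotein D, rose from 24.7 ± 0.580 to 29.6 ± 3.43 CPM (edgeR adjusted p = 0.0182). This call was lost without control siRNA replicate 2 or 3 or MCM7 siRNA replicate 1 or 3 (adjusted p from 0.000727 to 0.128 over the alternatives).

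Among 15 tested regulators of PTGS2 induction and mRNA stability 1 was called, in the lower direction, and the median log2 fold change was -0.06. The gene was ZFP36L2, which binds AU-rich elements and promotes mRNA decay, and it fell from 169 ± 9.42 to 137 ± 10.5 CPM (SD of 3 libraries, edgeR adjusted p = 0.000354). Of the 13 tested factors tied to PTGDS transcription 1 was higher and 3 were lower, with a median log2 fold change of 0.01. NOTCH3 fell from 31.8 ± 2.95 to 23.1 ± 2.14 CPM (edgeR adjusted p = 6.28e-05), while NOTCH2, another receptor of the family, rose from 261 ± 15.2 to 298 ± 5.88 CPM (edgeR adjusted p = 0.00969), a call lost without control siRNA replicate 1 or 3 (adjusted p from 0.00307 to 0.0855 over the alternatives).

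USF2, which binds E-boxes, fell from 86.3 ± 1.30 to 75.8 ± 3.94 CPM (SD of 3 libraries, edgeR adjusted p = 0.0162). Its call was lost without any 1 control library or without MCM7 siRNA replicate 2 (adjusted p from 0.00866 to 0.0798 over the alternatives). SOX9, a developmental transcription factor, fell from 6.43 ± 0.0943 to 5.01 ± 0.429 CPM (edgeR adjusted p = 0.0391), but the call held in only 8 of 17 alternatives (adjusted p from 0.0368 to 0.150). It was lost with DESeq2, after thinning to the smallest library, with limma on log2(RPM + 0.5) or log2(RPM + 1), without any 1 control library and without MCM7 siRNA replicate 2 or 3. A change in these regulators was not tested for any tie to PTGDS.

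Around PTGDS, 23 other genes are annotated within 100 kb on either side, and 8 of them were tested. The only called gene was ABCA2, a lipid transporter 25.5 kb away, with 83.7 ± 0.657 CPM in control and 72.9 ± 4.52 CPM in MCM7 siRNA libraries (SD of 3 libraries), with a log2 fold change of -0.20 (SE 0.05, adjusted p = 0.011 by edgeR). The other 7 were not called, where 12.8% of all tested genes were called. The log2 fold changes of all 8 were negative, some by less than their SE. Their median was -0.14, beside -0.0028 over all tested genes.

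The genes whose pattern over the 6 libraries was most like that of PTGDS were IGFBP5, ZNF160, MELTF, CNOT11 and UCK2. Likeness was the root mean square difference of centred log2 CPM among the 8232 genes with 10 CPM or more on average, and it was 0.156, 0.170, 0.178, 0.182 and 0.184. The step between the groups makes up most of such a pattern. IGFBP5, which binds insulin-like growth factors, had 1102, 1230 and 1198 CPM with control siRNA and 701, 677 and 723 CPM with MCM7 siRNA, so that control replicate 2 was highest for both genes, while the lowest library was MCM7 siRNA replicate 2 for IGFBP5 and replicate 1 for PTGDS.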

How the data were processed

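Poly(A)+ RNA of 6 samples was made into stranded libraries. Tools listed by the submitters' processing notes are featureCounts 1.5.0, TopHat2 2.1.0 and bcl2fastq 1.8.4, with the build GRCh38. The authors deposited raw read counts per gene. The deposited RPM are these counts divided by the library's total and scaled to a common size, and the deposited RPKM are RPM divided by 1 length per gene. Reads mapping to 1 place only were counted, by strand, so genes with close copies lose reads.

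Counts were filtered with filterByExpr, scaled by TMM (factors 0.991 to 1.016) and tested with the two-sided quasi-likelihood test of edgeR 4.0.16 with group as the only term, with Benjamini-Hochberg adjustment over all 14667 genes and a threshold of 0.05. Other tools were DESeq2 1.42.0, limma 3.58.1, R 4.3.3, Python 3.11.15 and matplotlib 3.10.9. DESeq2 gave no adjusted p for 2275 genes, PTGS2 and PLA2G4A among them. RPM served alternatives on log2(RPM + 0.5) and log2(RPM + 1), which understate changes of low genes. RPKM served only to compare levels. The floor of 3 reads covers counting error only, while SDs and SEs include the spread between libraries. In simulated counts for this comparison with 14506 genes tested, edgeR called 20 of 50 genes changed 1.2-fold, 35 of 48 at 1.5-fold, 47 of 48 at 2-fold and 50 of 50 at 4-fold, and 8 of 14310 unchanged genes. Few genes were changed and they were drawn from all levels, so these rates may not hold for low genes such as PTGDS, PTGS2 and PLA2G4A.

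The members and all lists were chosen with earlier results of these data known. Named were MCM7, the members, up to 4 called genes of each pathway list by smallest p, called genes within 100 kb of PTGDS and the 5 patterns nearest to it. Marker genes, FAM213B and GSTM3 were named after their values were seen. Coordinates are from GENCODE 44, matched by identifier (59 tested genes had no match).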

Additional observations from a re-analysis of the deposited data

How the results depend on the processing

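PTGDS was called lower in all 17 alternative fits, with log2 fold changes from -0.94 to -0.57, and no member or named pathway gene changed direction in any fit counted for it. All fits reuse the libraries whose PTGDS counts led to the set, so they give no separate support for its difference. Members called went from 2 to 1 (PTGDS) with library totals in place of TMM, with DESeq2, with limma on log2(RPM + 0.5) or log2(RPM + 1), and when edgeR and DESeq2 both had to call. Leaving out 1 library gave 1 to 3 members called, 1151 to 2265 genes over all genes and 13 to 21 pathway list genes, and the lowest counts of genes (1151) and of list genes (13) came without control siRNA replicate 3. Replicate numbers were shared between the groups, but same-numbered libraries did not deviate together (correlations -0.011, -0.028 and -0.017), so they were not taken as pairs, and a replicate block gave 1961 genes, 2 members and 21 pathway list genes. PTGS2 and PLA2G4A had no adjusted p with DESeq2 and did not pass a filter on a mean of at least 1 CPM, so neither fit was counted for them. Level per kilobase in control libraries with canonical length, chosen after seeing the data, was 4.08 for PTGDS, against 1.22 RPKM. Both are too low if reads on the bases shared with the read-through gene were dropped. The fold change of PTGDS would then rest on its other bases. PTGDS, PTGS2 and PLA2G4A stood on at most 79 reads in a library, which limits the precision of their fold changes.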
